A study of Homo sapiens with 4 samples.

Results

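The genes described here encode the subunits of the proteasome, together with its assembly chaperones, activators and inhibitor. They were taken by name, as protein-coding genes whose GRCh38 symbol begins with PSMA, PSMB, PSMC, PSMD, PSME, PSMF or PSMG, and read at gene-end peaks, which are peaks of open chromatin within 1 kb of either end of the gene. The names gave 50 genes, of which 46 had such a peak, with 105 gene-end peaks between them out of 190348 peaks in the whole table. PSMC3IP and PSME3IP1 carry the names of subunits they bind and are not subunits, so the counts below rest on the other 48 genes. Of these 48 genes, 44 had a gene-end peak, and all 44 passed the filter on low counts. PSMA6, PSMA8, PSMF1 and PSMG4 had none. The 5 genes PSMB8, PSMB9, PSMB10, PSME1 and PSME2, which belong to the immunoproteasome, are described apart from the other 43.

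Chromatin accessibility was measured by ATAC-seq, in which the Tn5 transposase cuts open DNA and tags it for sequencing. The cells were LM2, a subline of the human breast cancer line MDA-MB-231 that spreads readily to the lung. One group carried a deletion of CECR2 made with the guide called sg1, and the other carried a nontargeting control. Each group had 2 libraries of 50000 cells, and all were grown as monolayers in medium that contained puromycin. Only 1 CECR2 guide was used here, and the labels do not say whether the edited cells were a clone or a pool, nor whether replicates came from separate cultures. The p-values therefore reflect how far these libraries scatter, and that scatter may be technical.

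The proteasome degrades proteins that carry ubiquitin chains. Its barrel, the 20S core, is built from rings of alpha subunits, which gate the entrance, and rings of beta subunits, some of which cut peptide bonds. The 19S cap binds ubiquitinated proteins, unfolds them with a ring of ATPases and feeds them into the barrel. In immune cells, and in other cells exposed to interferon gamma, the catalytic subunits PSMB5, PSMB6 and PSMB7 can be replaced by PSMB8, PSMB9 and PSMB10, and PSME1 with PSME2 forms an alternative cap. This immunoproteasome supplies peptides for presentation on MHC class I molecules. CECR2 is a bromodomain protein that works with ISWI chromatin remodellers.

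The promoters of the 5 immunoproteasome genes are shown first because 4 of the 5 hold an interferon-stimulated response element, which few other members do, and those of PSMD10 and PSMD1 because these 2 genes moved in opposite directions. Each sequence runs 5′ to 3′ on the strand of the gene, from 250 bases before to 50 bases after the annotated start, and comes from RefSeq on GRCh38.p14. Capitals mark matches on either strand to the interferon-stimulated response element (GAAA, any 2 bases, GAAA), the gamma-activated site (TTCNNNGAA), the antioxidant response element (TGACNNNGC), the CCAAT box (CCAAT) and the ETS core (CCGGAAG). No 2 of the capital stretches overlap.
PSMB8, chr6:32843998-32844297, minus strand: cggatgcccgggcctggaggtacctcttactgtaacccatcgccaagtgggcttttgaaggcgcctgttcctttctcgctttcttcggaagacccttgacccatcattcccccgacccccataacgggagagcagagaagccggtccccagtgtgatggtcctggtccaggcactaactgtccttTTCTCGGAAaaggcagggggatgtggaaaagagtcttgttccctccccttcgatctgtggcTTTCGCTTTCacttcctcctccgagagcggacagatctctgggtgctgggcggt
PSMB9, chr6:32853942-32854241, plus strand: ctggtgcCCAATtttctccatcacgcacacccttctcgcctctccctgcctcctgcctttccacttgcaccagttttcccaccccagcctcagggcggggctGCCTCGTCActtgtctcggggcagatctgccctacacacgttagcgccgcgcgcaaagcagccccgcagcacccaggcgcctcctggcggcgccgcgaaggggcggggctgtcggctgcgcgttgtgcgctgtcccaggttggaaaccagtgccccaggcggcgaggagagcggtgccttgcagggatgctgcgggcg
PSMB10, chr16:67936801-67937100, minus strand: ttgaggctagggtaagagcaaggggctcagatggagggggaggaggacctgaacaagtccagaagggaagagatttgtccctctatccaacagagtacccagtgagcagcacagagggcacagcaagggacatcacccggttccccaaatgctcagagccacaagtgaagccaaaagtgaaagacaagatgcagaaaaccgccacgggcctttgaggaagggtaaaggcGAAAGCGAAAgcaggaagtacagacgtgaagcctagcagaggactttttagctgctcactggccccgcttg
PSME1, chr14:24135944-24136243, plus strand: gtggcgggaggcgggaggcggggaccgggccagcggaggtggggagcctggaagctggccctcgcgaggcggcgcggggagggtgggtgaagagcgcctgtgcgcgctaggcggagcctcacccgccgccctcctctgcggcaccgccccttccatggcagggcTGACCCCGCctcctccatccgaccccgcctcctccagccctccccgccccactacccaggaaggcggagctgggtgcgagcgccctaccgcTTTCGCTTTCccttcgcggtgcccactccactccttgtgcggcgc
PSME2, chr14:24146561-24146860, minus strand: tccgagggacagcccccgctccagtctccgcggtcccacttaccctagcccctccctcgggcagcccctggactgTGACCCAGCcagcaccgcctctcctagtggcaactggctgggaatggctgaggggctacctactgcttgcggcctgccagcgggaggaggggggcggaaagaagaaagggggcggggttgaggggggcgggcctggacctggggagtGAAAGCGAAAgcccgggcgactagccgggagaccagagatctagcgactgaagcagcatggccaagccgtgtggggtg
PSMD10, chrX:108091493-108091792, minus strand: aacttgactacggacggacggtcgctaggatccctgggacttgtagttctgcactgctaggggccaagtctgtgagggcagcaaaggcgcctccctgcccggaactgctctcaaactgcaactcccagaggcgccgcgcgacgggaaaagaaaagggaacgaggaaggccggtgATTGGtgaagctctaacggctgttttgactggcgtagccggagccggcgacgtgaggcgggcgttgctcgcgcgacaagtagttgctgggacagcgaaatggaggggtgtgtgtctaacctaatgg
PSMD1, chr2:231056617-231056916, plus strand: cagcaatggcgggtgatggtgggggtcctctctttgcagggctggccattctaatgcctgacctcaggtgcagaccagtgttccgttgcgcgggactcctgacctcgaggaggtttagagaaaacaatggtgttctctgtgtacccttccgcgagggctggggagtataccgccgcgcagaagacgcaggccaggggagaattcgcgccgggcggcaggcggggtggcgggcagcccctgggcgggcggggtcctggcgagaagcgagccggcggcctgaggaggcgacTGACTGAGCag

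PSMB8 has 2 annotated starts, and the one printed was picked because its window holds the interferon element. The interferon-stimulated response element began 4 bases before that start, and a gamma-activated site began 65 bases before it. PSMB10 and PSME2 held the interferon element at 21 and 28 bases before the start, and PSME1 held it at base 6 after the start. PSMB9 held no match to the interferon element in this window. These are matches of letters and say nothing about which factor sits there.

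After peaks at the very start of chromosome 1 were set aside, 43519018 and 38924086 counts were left in the CECR2 sg1 libraries and 21002477 and 15561701 in the control libraries. A count stands for 1 cut of the transposase. Levels are given as CPM, cuts per 1000000 counts after TMM scaling, and a change is the log2 fold change of CECR2 sg1 over control with its standard error. A peak was called higher or lower when the p-value of edgeR's quasi-likelihood test, adjusted by Benjamini-Hochberg over all 184717 tested peaks, was under 0.05. CECR2's own tallest gene-end peak held 148 and 165 counts in the CECR2 sg1 libraries and 74 and 52 in the control libraries, a log2 change of 0.10 (adjusted p = 0.77). It checks nothing about the deletion, which the labels do not place. All 8 markers fixed for MDA-MB-231 derivatives, VIM and AXL among them, had a gene-end peak, and their summed level was 231 and 234 CPM in CECR2 sg1 and 236 and 252 CPM in control libraries. Of the 8, 0 were called higher by edgeR or DESeq2, 1 passed an unadjusted p of 0.05 upward, and MSN was called lower (-0.92 ± 0.19, adjusted p = 0.000453). The median over tested peaks within 1 Mb of MSN was -0.93. The median change of the list was -0.08. The luminal marker ESR1 had no gene-end peak. In the 8-gene lists of luminal, blood-cell and fibroblast or endothelial markers, 7, 7 and 4 genes were tested. Of these 2, 0 and 1 were called higher and 0, 2 and 0 lower, beside 30.6% and 8.94% of all genes, and their summed levels were 62 to 63.4, 116 and 70.8 to 74.5 CPM in CECR2 sg1 against 50.3 to 59.5, 122 to 127 and 62.9 to 65.4 CPM in control libraries. Their part in the results below was not tested.

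Over all tested peaks 11.5% were called higher and 16.8% lower. Proteasome genes changed about as often as protein-coding genes at large, and by small amounts. Each gene was read at its tallest gene-end peak, the one with the highest mean CPM over the 4 libraries. At that peak 13 of 44 genes (29.5%) were called higher in CECR2 sg1 cells, while 30.6% of the 14632 genes tested in this way were called higher. A further 6 of 44 (13.6%) were called lower, beside 8.94% of all genes, and 25 were not called. The shares of 30.6% and 8.94% are also the background for the counts by role and by list below. The median log2 change was 0.12 over the 44 genes and 0.15 over all genes. Genes called higher included the core subunits PSMB6 and PSMA4, the chaperone PSMG3, the cap scaffold PSMD1 and the nuclear activator PSME3. Those called lower were PSMB11, PSMD10, PSMD14, PSMC4, PSMD5 and PSMB9. The changes of the 13 higher genes lay between 1.16-fold and 1.58-fold, and those of the 6 lower genes between 1.16-fold and, at PSMB11, 2.57-fold.

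The summed level of the 44 tallest peaks was 1036 and 1040 CPM in CECR2 sg1 libraries and 1036 and 1022 CPM in control libraries. Both CECR2 sg1 libraries lay above both controls at 23 genes and below both at 8, beside 53.7% and 18.1% of all genes. How far the calls lean upward depends on what the libraries are scaled to. Scaling on gene-end peaks alone, which lowers the log2 change of the median peak by 0.16, gave 5 genes higher and 11 lower. Over all tested peaks it changed the calls from 21269 higher and 31041 lower to 12511 and 42970. The share of all genes called under that scaling was not taken, so the split of the members has no such background. Under that scaling PSMD1, PSMG3, PSMA4, PSMD11 and PSME3 kept the higher call and all 6 lower genes kept theirs. DESeq2 called 7 genes higher and 6 lower, beside 17.4% and 5.39% of all genes. Leaving out CECR2 sg1 replicate 2 left 5 genes higher. A fall at a peak can mean fewer cells with the site open or less cutting per cell, and bulk libraries cannot tell these apart.

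**Figure D1:**
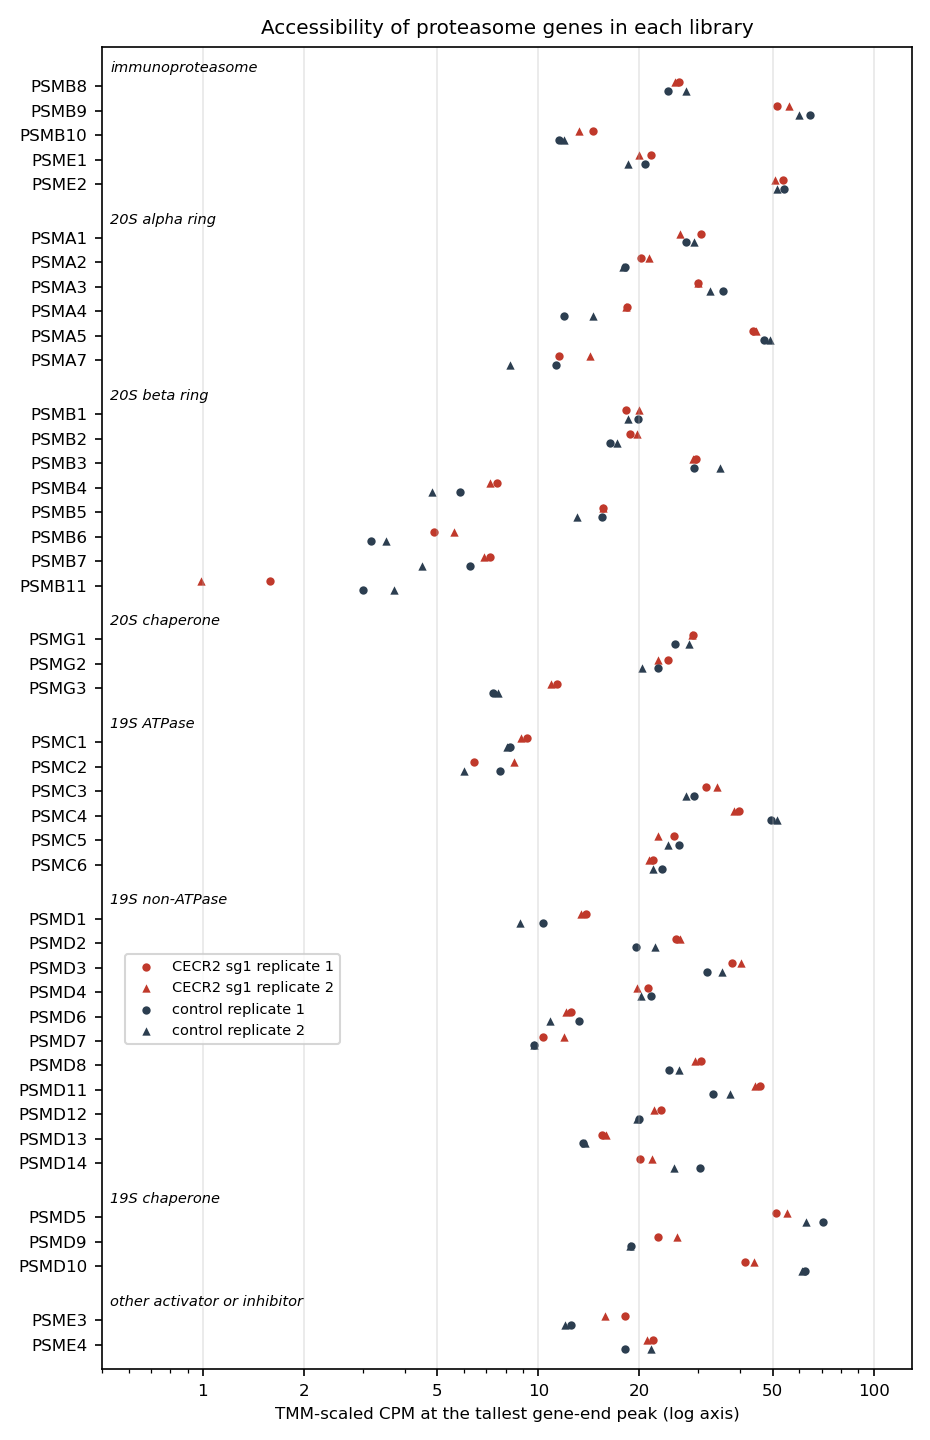
TMM-scaled CPM, on a log axis, at the tallest gene-end peaks of 44 proteasome genes, grouped by role. Each point is 1 library (circles, replicate 1; triangles, replicate 2; red, CECR2 sg1; dark, control). Levels run from 0.989 CPM at PSMB11 in CECR2 sg1 replicate 2 to 70.4 CPM at PSMD5 in control replicate 1, and at most genes the 2 groups lie close together.

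**Figure D2:**
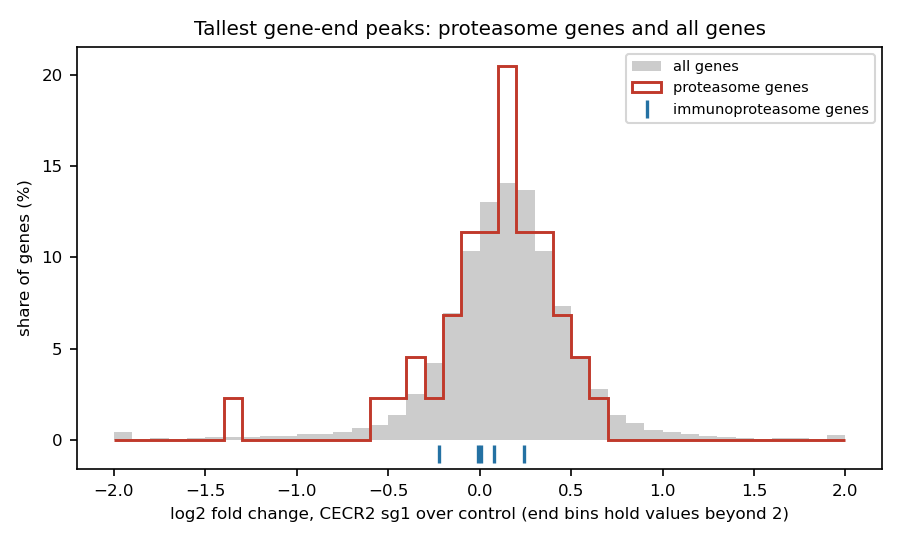
Share of genes, in percent, by log2 fold change (CECR2 sg1 over control) at the tallest gene-end peak. The grey bars are all 14632 genes, the red outline the 44 proteasome genes and the blue ticks the 5 immunoproteasome genes; the outline follows the grey bars, with PSMB11 at -1.36 standing to the left.

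Among the immunoproteasome genes only PSMB9 was called at its tallest peak, and it was lower. No tallest peak of the 5 genes was called higher by edgeR, 1 passed an unadjusted p of 0.05 upward (PSMB10), and DESeq2 called none higher. Over the tallest peaks of all genes edgeR called 30.6% higher and 8.94% lower. The median log2 change over the 5 genes was 0.01. Their summed level was 167.8 and 165.3 CPM in CECR2 sg1 libraries and 175.1 and 169.4 CPM in control libraries.

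PSMB9, which takes the place of the caspase-like subunit, had 51.5 and 55.7 CPM in CECR2 sg1 libraries and 64.5 and 59.9 CPM in control libraries. Both CECR2 sg1 libraries lay below both controls. The log2 change was -0.22 ± 0.06 (SE, n = 2 each, adjusted p = 0.0106). The call was lost when CECR2 sg1 replicate 1 or control replicate 1 was left out. The peak, chr6:32853001-32854667, contains the promoter printed above. It also lies at the annotated start of TAP1, a subunit of the peptide transporter that loads MHC class I molecules. The peak is therefore 1 measurement for both genes.

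The other 4 immunoproteasome genes were not called at their tallest peaks. PSMB8, which takes the place of the chymotrypsin-like subunit, had 26.3 and 25.6 CPM in CECR2 sg1 and 24.4 and 27.5 CPM in control libraries, a log2 change of 0.01 ± 0.08. Its peak also lies at the far end of TAP1. For PSMB10, which takes the place of the trypsin-like subunit, the levels were 14.6 and 13.2 CPM in CECR2 sg1 and 11.5 and 11.9 CPM in control libraries (0.24 ± 0.11, adjusted p = 0.11). The controls of PSMB10 lay below both CECR2 sg1 libraries, whereas the groups of PSMB8 overlapped.

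The activator subunit PSME1 had 21.7 and 20 CPM in CECR2 sg1 and 20.8 and 18.5 CPM in control libraries, a log2 change of 0.08 ± 0.09. Its partner PSME2 was among the tallest members, at 53.7 and 50.9 CPM in CECR2 sg1 and 54.0 and 51.6 CPM in control libraries (-0.01 ± 0.07). The groups overlapped at both genes, and PSME2 was called lower when libraries were scaled on gene-end peaks alone. It had a smaller neighbouring peak, chr14:24146242-24146459, with 4.57 and 4.31 CPM in CECR2 sg1 and 7.83 and 6.26 CPM in control libraries. This peak was called lower (-0.68 ± 0.17, adjusted p = 0.00328), and lost the call without CECR2 sg1 replicate 2 or control replicate 1. PSMB10's promoter as printed lies in its smaller peak, chr16:67936239-67937217, with 8.86 and 9.26 CPM in CECR2 sg1 and 10.1 and 7.18 CPM in control libraries (0.05 ± 0.15). Over all 7 gene-end peaks of the immunoproteasome genes, edgeR and DESeq2 each called 0 higher and 2 lower. In the upward direction 1 passed an unadjusted p of 0.05. Over all gene-end peaks edgeR called 21.2% higher and 7.28% lower.

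The constitutive catalytic subunits that the inducible ones replace had levels below 21 CPM, the median over the 44 members. PSMB6, the caspase-like subunit, had 4.90 and 5.61 CPM in CECR2 sg1 and 3.16 and 3.52 CPM in control libraries. Both CECR2 sg1 libraries lay above both controls, and the log2 change of 0.66 ± 0.20 was the largest upward change among the tallest peaks of the members (adjusted p = 0.0125). The call rested on 217 and 221 counts in CECR2 sg1 against 65 and 54 in control, and DESeq2 did not make it.

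PSMB5, the chymotrypsin-like subunit, had 15.6 CPM in each CECR2 sg1 library and 15.5 and 13.0 CPM in control libraries (0.12 ± 0.11, not called). PSMB7, the trypsin-like subunit, had 7.19 and 6.87 CPM in CECR2 sg1 and 6.27 and 4.50 CPM in control libraries (0.36 ± 0.17, adjusted p = 0.111). The groups did not overlap at PSMB7, and its call was gained when control replicate 1 was left out. None of the 3 inducible counterparts was called higher.

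In the rest of the beta ring PSMB4, a subunit that does not cut, was called higher, with 7.55 and 7.18 CPM in CECR2 sg1 and 5.83 and 4.83 CPM in control libraries (0.45 ± 0.17, adjusted p = 0.0367). This call was lost in 5 of 11 refits, DESeq2 included. PSMB11, a catalytic subunit that is normally confined to the thymus cortex, had the largest fall among tallest peaks. Its peak, 139 bp from the gene, held 70 and 39 counts (1.58 and 0.989 CPM) in CECR2 sg1 and 62 and 57 counts (3.01 and 3.72 CPM) in control libraries. The groups were well apart, with a log2 change of -1.36 ± 0.28 (adjusted p = 0.000288). Of the 8 beta-ring genes outside the immunoproteasome, 2 were called higher and 1 lower, with a median of 0.16. PSMB1, PSMB2 and PSMB3 were not called, at -0.01, 0.20 and -0.12.

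In the alpha ring 6 of 8 genes had a gene-end peak, with a median change of 0.11. edgeR called 2 higher and 0 lower, 3 and 1 passed an unadjusted p of 0.05, and DESeq2 called 1 higher and 0 lower. PSMA4 had 18.4 and 18.3 CPM in CECR2 sg1 and 11.9 and 14.6 CPM in control libraries, so the groups lay apart (0.48 ± 0.11, adjusted p = 0.000837). PSMA7 had 11.5 and 14.3 CPM in CECR2 sg1 and 11.3 and 8.22 CPM in control libraries (0.38 ± 0.14, adjusted p = 0.0349). Its lower CECR2 sg1 library lay just above the higher control, and the call was lost under DESeq2 and without CECR2 sg1 replicate 2 or control replicate 2. The peak of PSMA7 also lies at an end of SS18L1. PSMA1, PSMA2, PSMA3 and PSMA5 were not called, with log2 changes of 0.01, 0.21, -0.18 and -0.13. The tallest peak of PSMA1 lies away from its annotated start and also at an end of PDE3B. The peak at the annotated start of PSMA1 stood at -0.06 ± 0.08 and was not called.

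The ATPase ring of the cap moved little. Of its 6 genes, 1 was called higher and 1 lower, with a median of 0.02. PSMC4 had 39.7 and 38.2 CPM in CECR2 sg1 and 49.5 and 51.3 CPM in control libraries, with tight replicates and groups well apart (-0.37 ± 0.07, adjusted p = 7.34e-05). PSMC3 had 31.6 and 34.1 CPM in CECR2 sg1 and 29.2 and 27.5 CPM in control libraries (0.21 ± 0.08, adjusted p = 0.0436). The call on PSMC4 held in all 11 refits, whereas PSMC3 lost its call in 5 of them, DESeq2 included. The changes at PSMC1, PSMC2, PSMC5 and PSMC6 were 0.15, 0.10, -0.07 and -0.06 and were not called.

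The 11 non-ATPase genes of the cap make up its lid, scaffold and ubiquitin receptors. Of them 5 were called higher and 1 lower, beside 30.6% and 8.94% of all genes, with a median of 0.20. PSMD11, a lid subunit, had 45.7 and 44.1 CPM in CECR2 sg1 and 33.1 and 37.3 CPM in control libraries (0.36 ± 0.07, adjusted p = 0.000328). PSMD1, the largest scaffold of the cap, had 13.9 and 13.4 CPM in CECR2 sg1 and 10.3 and 8.81 CPM in control libraries (0.51 ± 0.12, adjusted p = 0.00162). At both genes the CECR2 sg1 libraries lay above the controls without overlap.

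PSMD14, the enzyme that removes ubiquitin chains from proteins entering the barrel, went the other way. It had 20.1 and 21.8 CPM in CECR2 sg1 and 30.4 and 25.4 CPM in control libraries, again without overlap (-0.42 ± 0.09, adjusted p = 0.000482). PSMD1 and PSMD14 both lie on chromosome 2, where the median log2 change over all tested peaks was -0.12. The other 3 higher calls were smaller. They were PSMD2, which docks ubiquitin shuttle proteins, at 0.33 ± 0.09, and the lid subunits PSMD8 and PSMD3 at 0.24 ± 0.08 and 0.22 ± 0.08, and each was lost when libraries were scaled on gene-end peaks alone. PSMD4, a ubiquitin receptor, stood at -0.04 ± 0.09, and PSMD6, PSMD7, PSMD12 and PSMD13 between 0.02 and 0.20, none of them called.

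All 3 PSMD genes for chaperones that assemble the base of the cap were called, in different directions. PAAF1, from the list of assembly factors and bound partners below, was not called (0.00 ± 0.08). PSMD10, also known as gankyrin, had 41.4 and 43.9 CPM in CECR2 sg1 and 62.5 and 61.0 CPM in control libraries. The groups were far apart compared with the replicates, and averaged 42.7 ± 1.75 CPM in CECR2 sg1 and 61.8 ± 1.08 CPM in control (SD, n = 2 each). Its log2 change of -0.53 ± 0.06 had the smallest adjusted p among the tallest peaks of the members, 8.72e-08. PSMD10 lies on chromosome X, where the median log2 change over all tested peaks was -0.27. PSMD5 had 51.2 and 55.2 CPM in CECR2 sg1 and 70.4 and 62.7 CPM in control libraries, also without overlap (-0.33 ± 0.07, adjusted p = 0.000253). PSMD9 was called higher, with 22.7 and 25.9 CPM in CECR2 sg1 and 18.9 and 18.7 CPM in control libraries (0.37 ± 0.09, adjusted p = 0.00295). Its tallest peak also lies at an end of HPD. The lower calls on PSMD10 and PSMD5 held in all 11 refits. That on PSMD9 was lost without CECR2 sg1 replicate 2 and with scaling on gene-end peaks alone.

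The 20S core has its own chaperones, which help to build the alpha ring. PSMG3 was called higher, with 11.4 and 10.9 CPM in CECR2 sg1 and 7.34 and 7.57 CPM in control libraries (0.59 ± 0.13, adjusted p = 0.00111). The groups lay apart with close replicates. PSMG1 and PSMG2 were at 0.11 ± 0.08 and 0.12 ± 0.09 and were not called. PSMG4 had no gene-end peak as the gene table places it. The promoter table gives it a start elsewhere, with a peak of 22.0 and 23.7 CPM in CECR2 sg1 and 19.7 and 17.2 CPM in control libraries that was called higher (0.30 ± 0.09, adjusted p = 0.0148).

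Of the remaining activators, PSME3, whose complex sits in the nucleus, was called higher, with 18.1 and 15.8 CPM in CECR2 sg1 and 12.5 and 12 CPM in control libraries (0.47 ± 0.11, adjusted p = 0.00136). Both CECR2 sg1 libraries were above both controls, and the call was lost without CECR2 sg1 replicate 1. PSME4, an activator linked to histone turnover, had 21.9 and 21.1 CPM in CECR2 sg1 and 18.1 and 21.6 CPM in control libraries (0.12 ± 0.09, not called). The start peak of the inhibitor PSMF1, away from the ends in the gene table, had 13.2 and 12.5 CPM in CECR2 sg1 and 9.33 and 7.57 CPM in control libraries, and was called higher (0.59 ± 0.13, adjusted p = 0.000674). The peak at the start of PSMA6 was not called (0.05 ± 0.09), and PSMA8, an alpha subunit known from testis, had no peak at either place. When each gene was read at its annotated start alone, 12 were called higher and 6 lower of 41. The share called over the start peaks of all genes was not taken, so this split has no such background. The namesakes PSMC3IP and PSME3IP1 stood at 0.33 ± 0.09 (called higher) and 0.21 ± 0.09 (not called).

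**Figure D3:**
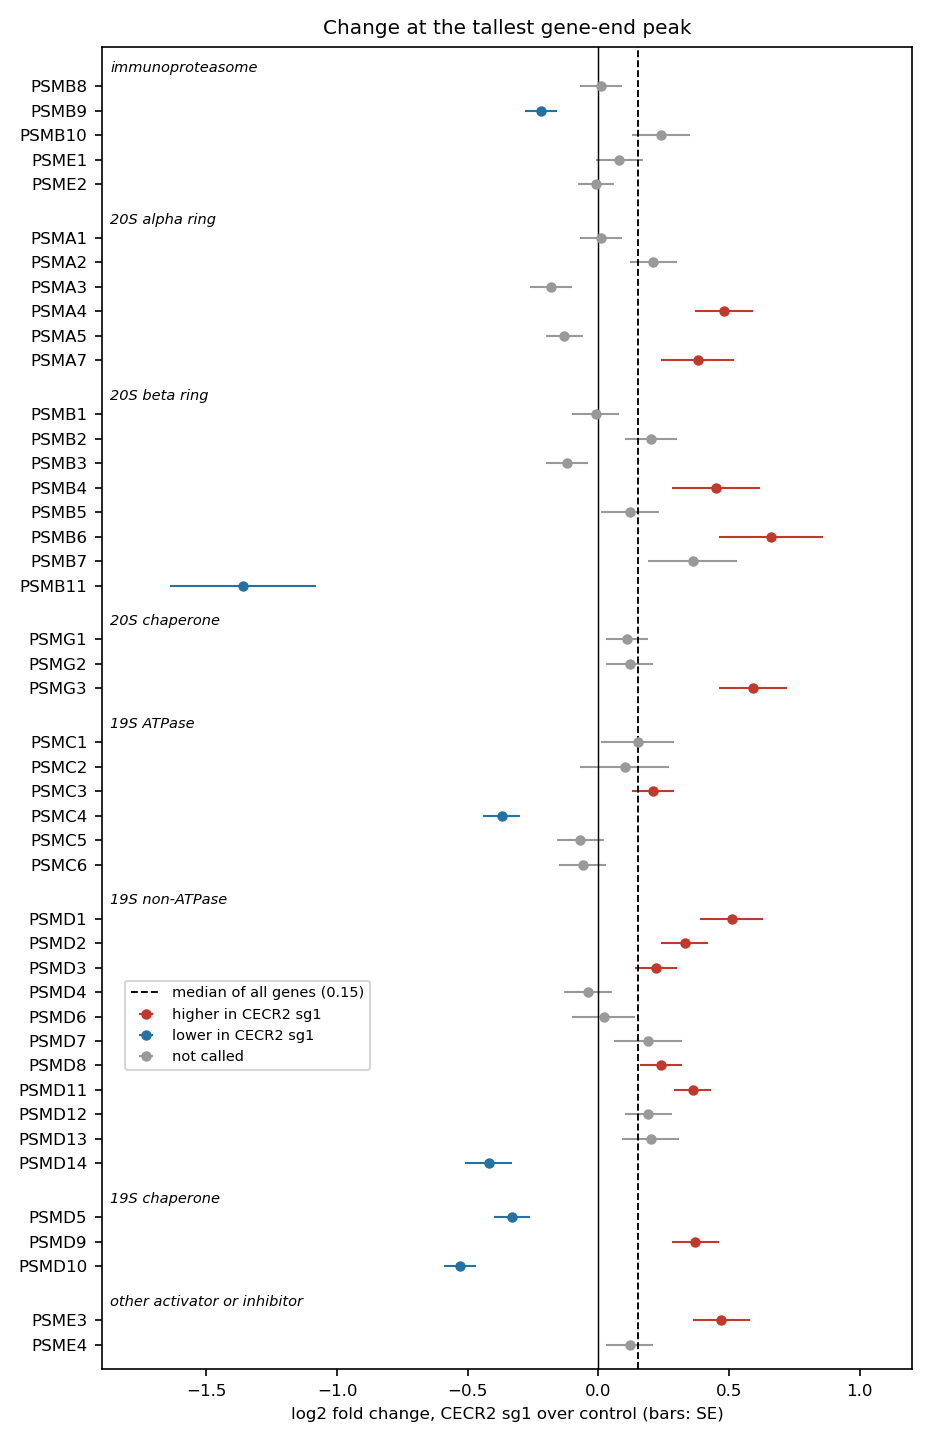
Log2 fold change (CECR2 sg1 over control) with its standard error at the tallest gene-end peak of 44 proteasome genes, by role; red marks genes called higher, blue lower and grey not called, and the dashed line is the median of all genes at 0.15. Only PSMB11 lies beyond -1, and the 3 PSMD genes for chaperones of the cap, PSMD5, PSMD9 and PSMD10, are all called, 2 lower and 1 higher.

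Per length, the tallest peaks of PSMD5, PSMC4 and PSMB3 had the highest mean levels, at 52.9, 49.2 and 48.1 CPM per kb of peak. PSMB3, a beta subunit that does not cut, had 29.5 and 28.9 CPM in CECR2 sg1 and 29.2 and 34.8 CPM in control libraries, a small overlap between the groups. PSMB6, PSMB11 and PSMA4 had the lowest, at 6.52, 7.07 and 9.51 CPM per kb. Lowly covered peaks carry wider errors, as the standard errors of PSMB6 and PSMB11 show. Among the 37 members whose tallest peak reached 10 CPM, 10 were called higher (27%) and 5 lower (13.5%), beside 33.2% and 8.65% of all genes above that level.

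Many of these genes share an end with another gene. The tallest peak of 13 of 44 members (29.5%) also lay at an end of another protein-coding gene, close to the 28% of all genes for which this held.

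The largest changes were found away from the tallest peaks. The 48 genes had 101 gene-end peaks in all, of which 17 (16.8%) were called higher and 12 (11.9%) lower, beside 21.2% and 7.28% of all gene-end peaks. With scaling on gene-end peaks alone the split was 7 higher and 17 lower, with no share over all gene-end peaks taken to set beside it. Of the 57 peaks that were not their gene's tallest, 4 were called higher and 6 lower. Of the gene-end peaks that were the tallest of no gene at all, 10.9% and 5.36% were called. The 57 may also hold peaks that are the tallest of another gene, so the sets are not fully alike. Calls of more than 2-fold numbered 2 higher and 4 lower over the 101 peaks, beside 2.22% in each direction over all gene-end peaks.

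At PSMC1, an ATPase of the cap, the peak at chr14:90275831-90276342 had 2.76 and 3.17 CPM in CECR2 sg1 and 14.5 and 12.1 CPM in control libraries. It lies 402 bp beyond the far end of PSMC1 and inside the gene NRDE2, so it cannot be given to one gene. The CECR2 sg1 libraries were far below the controls, with a log2 change of -2.18 ± 0.16 (adjusted p = 1.11e-12), and the call held in all 11 refits. In control libraries it was taller than the peak at the start of PSMC1, which had 9.22 and 8.88 CPM in CECR2 sg1 and 8.22 and 8.09 CPM in control libraries and was not called. Next to it chr14:90275663-90275818 had 0.429 and 0.406 CPM in CECR2 sg1 and 1.26 and 1.11 CPM in control libraries (-1.5 ± 0.43, adjusted p = 0.00741). That peak rested on 19 and 16 counts against 26 and 17 counts, and lost its call under DESeq2. Another peak there, at chr14:90275176-90275433, was also called lower (-0.79 ± 0.23, adjusted p = 0.0102).

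PSMB6 had peaks that moved in opposite directions at its ends. Its tallest peak, at one end, was called higher as given above. At the other end chr17:4798749-4799180 had 0.791 and 0.482 CPM in CECR2 sg1 and 2.48 and 3.46 CPM in control libraries, and was called lower (-2.18 ± 0.33, adjusted p = 3.55e-06). It lies 254 bp outside PSMB6 and 1979 bp from C17orf114, and held 35 and 19 counts in CECR2 sg1 against 51 and 53 in control, so the groups were well apart in CPM.

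The 2 upward calls of more than 2-fold were at PSMG3 and PSMC6. Inside PSMG3, chr7:1567885-1568261 had 9.85 and 9.03 CPM in CECR2 sg1 and 4.42 and 4.83 CPM in control libraries (1.04 ± 0.16, adjusted p = 5.98e-06). All 7 gene-end peaks of PSMG3 had positive log2 changes, and 3 of them were called. At PSMC6, chr14:52706410-52706616, ahead of the gene start, had 2.21 and 2.66 CPM in CECR2 sg1 and 1.07 and 1.11 CPM in control libraries (1.16 ± 0.30, adjusted p = 0.00366). The tallest peak of PSMC6, close by, had 22.0 and 21.4 CPM in CECR2 sg1 and 23.4 and 21.9 CPM in control libraries and was not called.

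**Figure D4:**
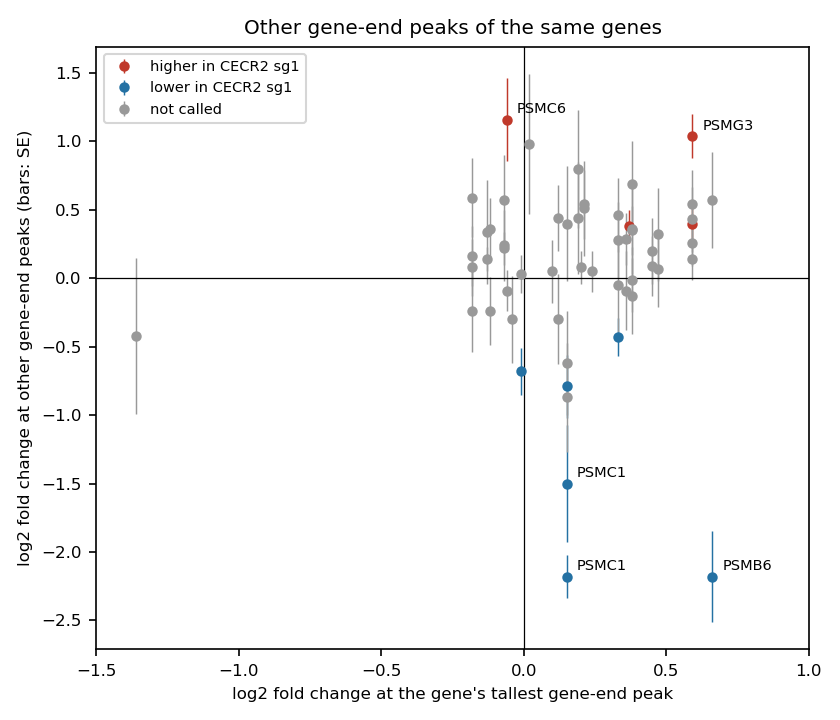
Log2 fold change (CECR2 sg1 over control, with standard error) at the 57 gene-end peaks that are not their gene's tallest, against the value at the tallest peak of the same gene; red, higher; blue, lower; grey, not called. The 2 peaks at -2.18 belong to PSMC1 and PSMB6, whose tallest peaks stand at 0.15 and 0.66.

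Proteasome genes lie on 17 chromosomes, so their surroundings differ. For each member the median log2 change was taken over all tested peaks within 1 Mb and more than 10 kb away, a description added after the data were seen. These regional medians ranged from -0.35 around PSMB1 to 0.41 around PSMD11. Over the 44 members the median difference between a gene and its region was 0.08. That difference was not taken for all genes, whose tallest gene-end peaks had a median of 0.15, beside 0.02 over all tested peaks. PSMD11 was at 0.36 in a region at 0.41, and PSMD3 at 0.22 in a region at 0.29. PSMD10 and PSMD14 were called lower in regions at -0.21 and -0.25. PSMC4 was called lower in a region at 0.20, and PSMD1 higher in a region at -0.08. Of the chromosome 7 members, PSMG3 was called higher while PSMA2 and PSMC2 were not called. The chromosome's median over all tested peaks was 0.21.

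**Figure D5:**
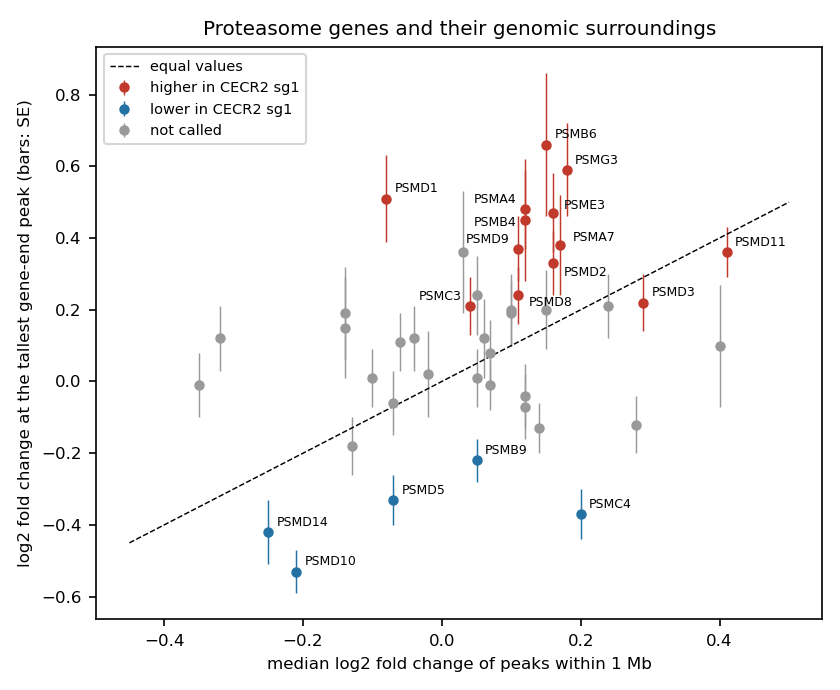
Log2 fold change at the tallest gene-end peak (vertical, with standard error) against the median log2 fold change of peaks within 1 Mb (horizontal), both CECR2 sg1 over control, for the members other than PSMB11, which lies off the scale at -1.36. On the dashed line both are equal; PSMC4 lies far below it and PSMD1 far above it, while PSMD11 and PSMD3 lie just below it.

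The 5 lists of genes that work with or control the proteasome held 70 genes, of which 68 were tested. At the tallest gene-end peak 16 (23.5%) were called higher and 8 (11.8%) lower, beside 30.6% and 8.94% of all genes. Scaling on gene-end peaks alone gave 7 higher and 17 lower, with no share over all genes taken to set beside them. Among 13 assembly factors and bound partners, 3 were called higher and 0 lower, with a median of 0.13. In the downward direction 1 passed an unadjusted p of 0.05 and DESeq2 called 0. UBE3C, a ubiquitin ligase that sits on the proteasome, had 36.8 and 40.5 CPM in CECR2 sg1 and 31.1 and 28.0 CPM in control libraries (0.38 ± 0.08, adjusted p = 0.000325). ADRM1, a ubiquitin receptor of the cap, had 57.2 and 53.5 CPM in CECR2 sg1 and 45.7 and 44.4 CPM in control libraries (0.30 ± 0.07, adjusted p = 0.00084). Both had CECR2 sg1 libraries above the controls. POMP, which matures the 20S core, was at -0.23 ± 0.10 and not called.

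Among 12 regulators of proteasome genes, 5 were called higher and 2 lower, with a median of 0.11. NFE2L1, the factor that raises proteasome genes when degradation is blocked, had 67.9 and 76.5 CPM in CECR2 sg1 and 73.7 and 71.0 CPM in control libraries (-0.00 ± 0.06). DDI2, the protease that activates it, was called higher at 0.39 ± 0.09, and NGLY1, which strips its sugars, lower at -0.25 ± 0.08, a call that DESeq2 did not make. The NGLY1 peak also lies at an end of OXSM, and the median over tested peaks within 1 Mb of it was also -0.25. FOXO4 had 10.6 and 8.39 CPM in CECR2 sg1 and 14.8 and 14.7 CPM in control libraries (-0.63 ± 0.12, adjusted p = 0.000197), and the median over tested peaks within 1 Mb of it was also -0.63. MAFF, a small MAF partner of NFE2L1, had 22.6 and 23.6 CPM in CECR2 sg1 and 17 and 18 CPM in control libraries (0.40 ± 0.09, adjusted p = 0.0011). At FOXO4 and MAFF the groups did not overlap.

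Of 15 genes for ubiquitin, its activating enzymes and its shuttles, 13 were tested, with 3 called higher, 1 lower and a median of 0.07. UBA1, the main ubiquitin-activating enzyme, had 10.5 and 10.3 CPM in CECR2 sg1 and 16 and 14.4 CPM in control libraries (-0.56 ± 0.11, adjusted p = 0.000295), in a region with a median of -0.61. UBB, a gene for ubiquitin itself, had 11.3 and 10.5 CPM in CECR2 sg1 and 7 and 7.44 CPM in control libraries and was called higher (0.60 ± 0.14, adjusted p = 0.00104). At both genes the groups lay apart.

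Genes that use or control the immunoproteasome were read in the same way. Of 15 genes of MHC class I antigen processing, 0 were called higher and 3 lower, beside 30.6% and 8.94% of all genes. Their median was 0.06. In the upward direction 3 passed an unadjusted p of 0.05. DESeq2 called 0 higher and 1 lower, and that one is TAP1, which is the peak of PSMB9 counted again. TAP2, the partner of TAP1, had 35.1 and 33.7 CPM in CECR2 sg1 and 39.5 and 41.5 CPM in control libraries and was called lower by edgeR (-0.23 ± 0.07, adjusted p = 0.0133). Its groups did not overlap, but DESeq2 did not make the call (adjusted p = 0.0721). B2M, the light chain of class I molecules, stood at 0.06 ± 0.09 and was not called.

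Of 15 regulators of immunoproteasome genes, 5 were called higher and 2 lower, with a median of 0.22. NFKB2, an NF-kB subunit, had 39.7 and 38.9 CPM in CECR2 sg1 and 52.8 and 53.3 CPM in control libraries (-0.43 ± 0.07, adjusted p = 5.78e-06). JAK1, a kinase of interferon receptors, had 23.2 and 23.4 CPM in CECR2 sg1 and 18.7 and 16 CPM in control libraries (0.41 ± 0.09, adjusted p = 0.00102). Replicates were close and the groups apart at both genes. IRF1 and NLRC5, which drive immunoproteasome and class I genes after interferon, were not called, at -0.01 and 0.06.

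Promoter letters were compared for the 38 members with both a RefSeq promoter and a tested peak, and for 11870 genes with both. The antioxidant response element TGACNNNGC was found in 15 members (39.5%), beside 18.9% of all genes, and the interferon-stimulated response element in 6 (15.8%), beside 3.84%. The 6 were PSMB8, PSMB10, PSME1, PSME2, PSMA4 and PSMB4. The gamma-activated site TTCNNNGAA was in 18.4% of members and 8.4% of genes, CCAAT in 52.6% and 42%, the ETS core CCGGAAG in 28.9% and 20.3%, the GC box GGGCGG in 65.8% and 73.5%, and the NF-kB site in 2.63% and 17.3%. The GC content of these promoters had a median of 62.2% in members and 64.7% in all genes.

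Members with the antioxidant element had a median log2 change of 0.11 and those without it 0.15, while all genes with and without it stood at 0.16 and 0.15. Both PSMD1, called higher, and PSMD5 and PSMC4, called lower, hold this element. Of the members with the interferon element, PSMA4 and PSMB4 were called higher and the 4 immunoproteasome genes were not called. All of this is a description of letters in a window of 300 bases, with no test.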

How the data were processed

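The authors deposited raw counts per peak for 190348 peaks in 4 libraries. Per the file headers, featureCounts 1.6.0, run single-end, read files named for cut sites, so both ends of a fragment may be counted. Tools named in the submitters' processing notes are MACS2 2.2.4, deepTools 3.1.3, Trimmomatic 0.39, DESeq2 1.32, Bowtie2, CASAVA and SAMtools. Neither the genome build nor the handling of duplicates is given in the sources used here. With RefSeq genes of GRCh38.p14, a gene-end peak was found for 73.4% of 20037 protein-coding genes. The shares were 31.1% and 30.9% after shifting the gene ends by 100 kb in either direction, so this table was used.

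The first 250 kb of chromosome 1 held 109 peaks that were left out. Counts passing filterByExpr (184717 peaks, with 5522 too low) were fitted on group alone in edgeR 4.0.16 (R 4.3.3). The test was its quasi-likelihood F test after TMM scaling, in a script tested on simulated data. At peaks drawn from all tested ones, it called 0% of simulated 1.25-fold changes, 16% of 1.5-fold, 40.8% of 2-fold and 82% of 4-fold. Only 50 of 184717 peaks were changed at each fold, which makes the adjusted p stricter than in the data, where far more peaks were called. These shares therefore do not give the sensitivity at the members. A peak that was not called may still have changed. DESeq2 1.42.0, other scalings, filters and distances, and leaving out each library, were alternatives. TMM factors were 0.981 to 1.018, and the biological coefficient of variation was 8.13%. Same-numbered replicates deviated with a correlation of -0.001, so numbers were not used to pair libraries. The fold change is on the fitted scale, and its SE was obtained by dividing its size by the root of F.

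Members, gene lists and tests were chosen with earlier results of these data known. Values in every library are given for the immunoproteasome and constitutive catalytic genes, per role the 3 called genes with the smallest p, the 3 highest and 3 lowest per kb, and other peaks past 2-fold. Per related list they are given for up to 2 genes; some list members are not reported here. PSMB10's and PSME2's smaller peaks, PSME4, PSMF1, PSMG4 and NFE2L1 were added after their values were seen. Sequences come from RefSeq tables, in which 38 of the 44 tested members had a promoter.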

Additional observations from a re-analysis of the deposited data

Results flagged for a closer look

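Counts outside the comparisons differed between the groups. The first 11 peaks of chromosome 1, which were left out of every test above, held 25.26% and 25.21% of the counts in CECR2 sg1 replicates 1 and 2, against 17.82% and 17.71% in control replicates 1 and 2. They were picked by a cut on their end position, so the length of the stretch they cover says nothing about what they are. Keeping them in the library sizes left the calls on proteasome genes at 13 higher and 6 lower.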

How the results depend on the processing

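Over 11 refits of 50 named peaks (550 values), no peak called in the main or the other setting changed sign. In 28 values of 15 uncalled peaks the sign of a small change differed. With TMM factors from gene-end peaks alone these were PSME4 at -0.03, PSMD6 at -0.14, PSMB8 at -0.15, PSMC2 at -0.06, PSMA1 at -0.15, PSMB5 at -0.04, PSME1 at -0.08, PSMC1 at -0.01, PSMG2 at -0.04 and PSMG1 at -0.05. With library size only they were PSMD4 at 0.01, PSMB1 at 0.03 and PSME2 at 0.03. Leaving out each library in turn gave ranges that crossed 0: PSMB1 from -0.06 to 0.07, PSMA1 from -0.09 to 0.13, PSMD4 from -0.08 to 0.04, PSMC2 from -0.09 to 0.31, PSME2 from -0.05 to 0.04, PSMC5 from -0.14 to 0.02, PSME4 from -0.01 to 0.25, PSMB8 from -0.09 to 0.09, PSMD6 from -0.11 to 0.18 and PSMB3 from -0.25 to 0.00. Calls held in all 11 refits for the higher genes PSMG3, PSMD1, PSMA4 and PSMD11 and the lower genes PSMB11, PSMD10, PSMD14, PSMC4 and PSMD5. With TMM factors from gene-end peaks alone, counts were 12511 peaks higher, 5 proteasome genes higher and 11 lower, 7 proteasome gene-end peaks higher, and 7 genes of the related lists higher and 17 lower. DESeq2 called 8475 peaks higher and 17866 lower, 7 proteasome genes higher, 9 proteasome gene-end peaks higher, and 9 genes of the related lists higher and 4 lower. Leaving out 1 library at a time gave 11147 to 20243 peaks higher and 18888 to 29467 lower, and 5 to 10 proteasome genes higher and 5 to 7 lower. It also gave 6 to 16 proteasome gene-end peaks higher and 8 to 13 lower, 0 to 2 immunoproteasome peaks lower, and 9 to 16 genes of the related lists higher and 3 to 10 lower. Without control replicate 1 no immunoproteasome peak was called, and without CECR2 sg1 replicate 2 there were 5 proteasome genes and 6 proteasome gene-end peaks higher. In these refits the lone library of a group is assumed to vary like the other group. Reading gene ends out to 5 kb gave 26 proteasome peaks higher and 21 lower and 4 immunoproteasome peaks lower, since more peaks are counted; where not said, the cause was not tested. The other settings, among them no filter, library size only and the sum over gene-end peaks, kept each count within 1.5 times.

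The replicate numbers share no source in the labels. With the replicate number as a block, 21218 peaks were higher and 30358 lower, 13 proteasome genes higher and 6 lower, 16 proteasome gene-end peaks higher and 12 lower, 0 immunoproteasome peaks higher and 2 lower, and 16 genes of the related lists higher and 8 lower.

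With 2 libraries a group, depth limits most the smallest peaks, such as the one of PSMB11 with 39 to 70 counts.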
